A study of Homo sapiens with 6 samples.

Results

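Transport vesicles are pinched off membranes by protein coats, and the genes of the clathrin, adaptor and COP coats were examined here by RNA-seq in DU145 cells that overexpress TFEB. The genes were chosen by name: protein-coding rows of the deposited table whose symbol names a clathrin chain, a subunit of the adaptor complexes AP-1 to AP-5, a GGA protein, an epsin, PICALM, a COPI subunit, or a SEC13, SEC16, SEC22, SEC23, SEC24 or SEC31 gene. This rule found 41 of the 10542 genes in the table. A further 21 annotated genes that fit the names were not analysed here: AP1M1, AP1M2, AP1S3, AP2M1, AP3B2, AP3M2, AP3S1, AP3S2, AP4B1, AP4M1, CLTCL1, COPZ2, EPN2, EPN3, GGA3, SEC16A, SEC16B, SEC22A, SEC22C, SEC23B and SEC31B.

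DU145 is a human prostate cancer cell line, and TFEB is a transcription factor that drives genes of lysosomes and autophagy. The study asked which transcripts change when TFEB is raised in these cells, whose own TFEB level was described as relatively low. DU145-TFEB cells had been infected with a TFEB-overexpression lentivirus, and the control DU145-vector cells with a blank vector lentivirus; per the study's methods, stable lines were obtained by selection with puromycin. Both groups therefore share the virus and the selection, and each is 1 line, so that TFEB and any other difference between the lines cannot be told apart. Polyadenylated RNA of 3 libraries per group was sequenced, with 13999961 to 16511477 reads on the listed genes. The labels do not say whether the libraries came from separate cultures, so the p-values may measure technical spread only. TFEB itself had normalized counts of 6325, 6301 and 6036 in DU145-TFEB and of 127, 124 and 125 in DU145-vector, as the labels say. Of the simple epithelial markers looked up, KRT8, KRT18 and KRT19 were listed, with mean normalized counts in DU145-vector of 26868, 10842 and 2090.1 and in DU145-TFEB of 16978, 6385 and 1610.3. All 3 were lower in DU145-TFEB, with log2 fold changes of -0.68, -0.78 and -0.38 (limma, adjusted p = 0.000663, 0.000328 and 0.0107), and their part in the results was not tested. KRT7, EPCAM, CDH1, KRT5 and the markers looked up for blood, endothelial and stromal cells were not listed; a gene whose level did not differ would not be listed either.

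A coat bends the membrane, gathers the cargo and is then shed. Clathrin forms a lattice of heavy and light chains, and it reaches the membrane through adaptors: AP-1 and the GGA proteins at the trans-Golgi network and endosomes, AP-2, epsins and PICALM at the plasma membrane. AP-3 sorts membrane proteins toward lysosomes and related organelles, while AP-4 and AP-5 work at the trans-Golgi network and late endosomes without clathrin. Each adaptor complex is built from a pair of large subunits, a medium (mu) subunit and a small (sigma) subunit. COPII carries cargo out of the endoplasmic reticulum, and COPI returns it from the Golgi and moves it between Golgi cisternae. The subunits of one complex are needed together at fixed proportions in the protein coat.

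In DU145-TFEB, transcripts of the same coat moved in opposite directions. Clathrin heavy chain CLTC, beta-COP COPB1, mu3 AP3M1 and epsilon4 AP4E1 fell the furthest, to mean normalized counts of 24.9%, 24.2%, 25.1% and 24.8% of the DU145-vector means. The clathrin light chains CLTA and CLTB, the AP-2 alpha subunits AP2A1 and AP2A2, delta-adaptin AP3D1 and epsilon-COP COPE rose by 1.27-fold to 2.28-fold. Of the 41 genes, 21 were higher (51.2%) and 20 lower (48.8%) at a limma adjusted p below 0.05. The values are deposited normalized read counts, that is, reads divided by 1 size factor per library, and limma was run on log2(normalized count + 1), so that fold changes on this scale slightly understate changes of low genes. Of all 10542 listed genes, 47.6% were higher and 52.4% lower by the same test. The deposited table holds no gene with a deposited adjusted p of 0.05 or more, so it was selected on these same libraries: passing the test separates no gene from another, the p-values are not independent evidence, and small changes are not represented.

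Among the coat genes, 9 were differentially expressed genes (DEGs, here an adjusted p below 0.05 with a log2 fold change beyond 1.5 either way) that were lower in DU145-TFEB, and these were COPB1, AP3M1, CLTC, AP4E1, SEC24B, AP1G1, SEC24A, AP5M1 and PICALM. That was 22% of the genes, while 16.5% of all listed genes were lower DEGs. DESeq2 on reads gave 7 lower DEGs and edgeR 8, where 10.2% and 14.5% of all listed genes were lower DEGs by the same tests. There were 0 higher DEGs by limma, DESeq2 or edgeR, against 2.54%, 4.59% and 3.12% of all listed genes by the same tests. Before adjustment, 21 coat genes were higher at an unadjusted p below 0.05, the same number as after it. The share of all listed genes at that threshold was not computed, so this count has no background. Without replicate 2 of DU145-TFEB the lower DEGs were 7, since AP5M1 (-1.497) and PICALM (-1.404) were no longer past the cutoff, and without replicate 2 of DU145-vector PICALM alone was lost (-1.487). Of all listed genes, 12.2% and 14.8% were lower DEGs in these fits. The median log2 fold change was 0.27 over the coat genes and -0.36 over all listed genes. With 21 coat genes higher and 20 lower, the coat median is the value of the least raised gene, COPG2. The next gene down was AP4S1 at -0.43, so this median follows the split of directions and gives no measure of a shift of the set. The libraries of the groups did not overlap for any of the 41 genes, which also held for 99.3% of all listed genes. Because this is bulk RNA, fewer cells of a kind and less RNA per cell cannot be told apart.

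Direction went with base composition. The 20 lower coat genes had transcripts with 35.9% to 48.0% GC (median 42.4%) and the 21 higher coat genes had 43.8% to 65.0% (median 56.5%). Among the listed protein-coding genes the medians were 42.5% for lower and 57.9% for higher genes. Of the 12 coat genes with 40% to 45% GC, 11 were lower, beside 95.0% of the other 2424 protein-coding genes in that range. All 8 coat genes with 55% to 60% GC were higher, beside 4.01% lower among the other 1473. Across the 41 genes, Spearman's rho between log2 fold change and transcript GC content was 0.82, and it was 0.78 across the 9217 listed protein-coding genes with a known GC content; these are descriptions, since all points come from the same 6 libraries. With GC content at the third codon position the rho was 0.87 over the coat genes and 0.74 over 9210 listed protein-coding genes.

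**Figure D1:**
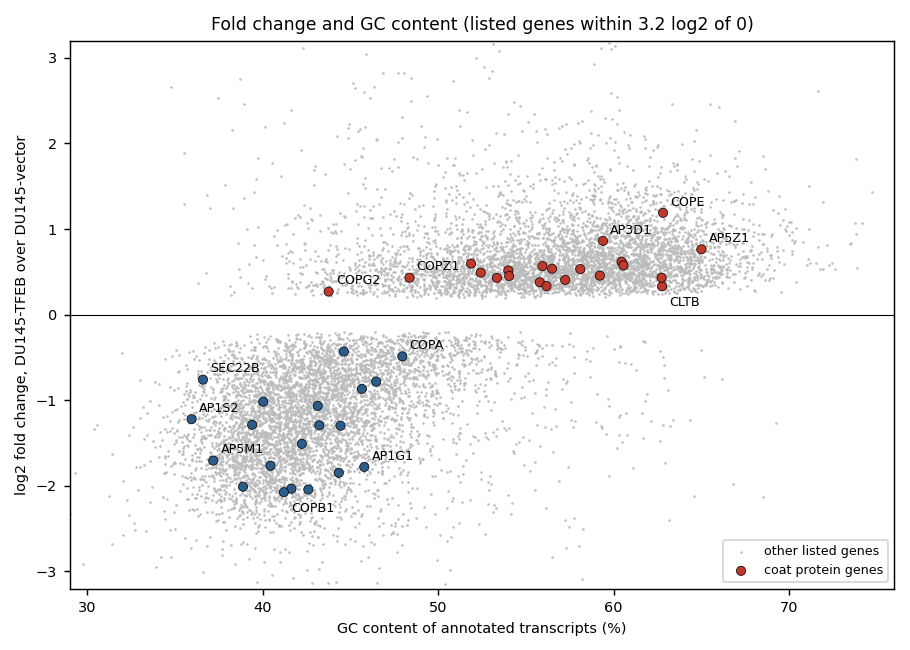
Log2 fold change of DU145-TFEB over DU145-vector (vertical axis) against the GC content of the annotated transcripts in percent (horizontal axis). Grey points are other listed genes, red and blue points are the 21 higher and 20 lower coat protein genes; the lower genes lie at 35.9% to 48.0% GC, and COPG2 is a higher gene at 43.8%. The empty band around 0 reflects the selection of the table.

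Values were therefore also computed after a smooth trend of log2 level against GC content and gene length had been removed from each library, and these are called corrected values here. After correction 5 coat genes were higher (12.2%), 26 lower (63.4%) and 10 did not pass, where 14.7% of the 10537 genes with a corrected value were higher and 53.8% lower. The median corrected value was -0.27, beside -0.32 for all listed genes, and no coat gene was a DEG in either direction by limma, where 1.44% of these genes were higher and 3.78% lower DEGs. The 9 lower DEGs stayed lower, between -1.29 for SEC24B and -0.60 for AP5M1. The correction keeps the mean level of each library, so 0 is not the middle of the corrected values. A corrected value slightly below 0 is therefore not low for this table. The part of base composition in the fold changes, and whether it arose in the cells or in the libraries, was not tested.

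**Figure D2:**
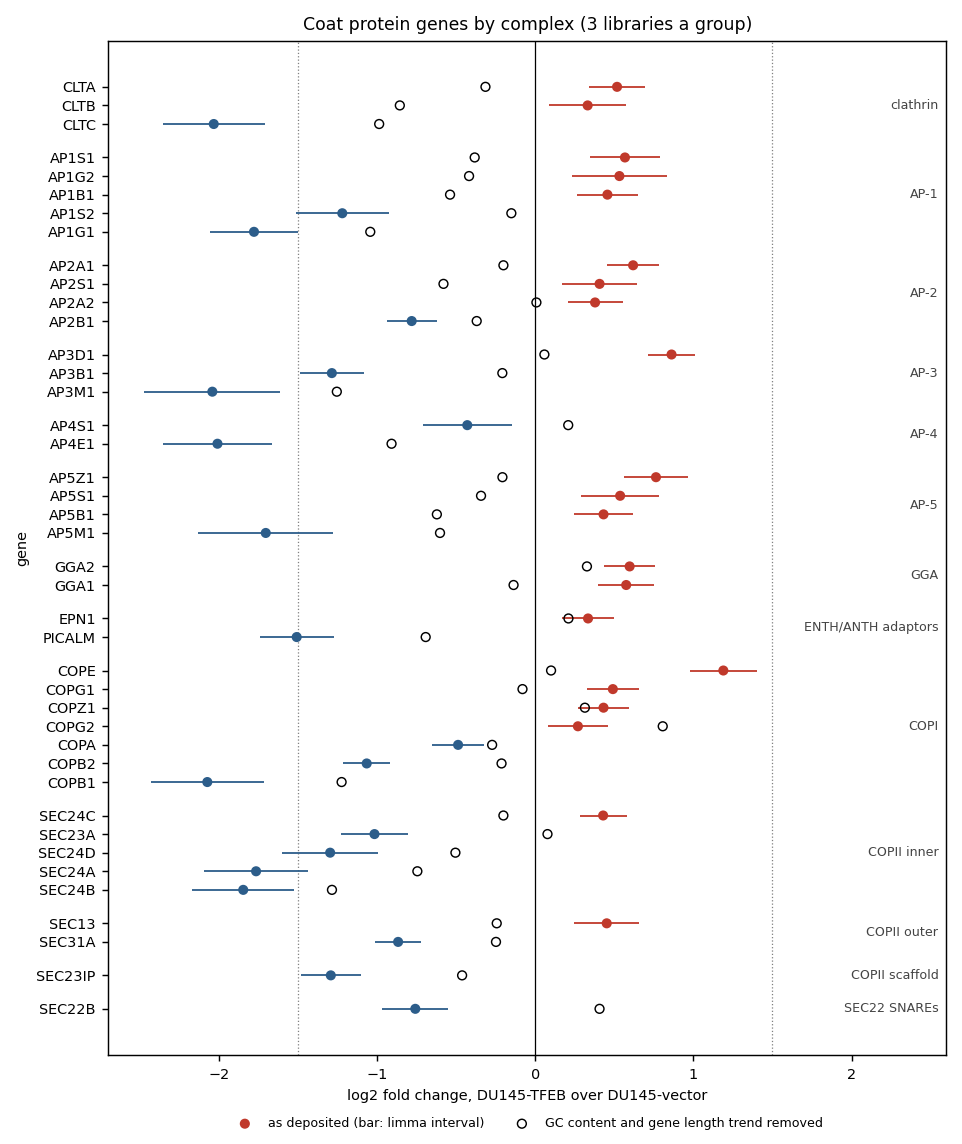
Log2 fold change of DU145-TFEB over DU145-vector for each coat protein gene, grouped by complex. Red (higher) and blue (lower) points are the values as deposited with the limma 95% interval over 3 libraries a group, open circles are the corrected values, and dotted lines mark the cutoff of 1.5. Most complexes hold both red and blue points, from COPB1 at -2.07 to COPE at 1.19.

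Among the DU145-TFEB libraries the same library was lowest for most of the lower genes. For the 9 lower DEGs, the median distance from the DU145-vector mean was -1.83, -2.14 and -1.53 on the log2 scale in replicates 1, 2 and 3 of DU145-TFEB. Replicate 2 had the lowest DU145-TFEB value for 15 of the 20 lower genes, and replicate 3 the highest for 18 of them. The same replicate 2 had the highest DU145-TFEB value for 15 of the 21 higher genes. This order was not counted over all listed genes, so it is not shown to be particular to the coat genes. Over the whole table, lower DEGs went from 1741 to 1289 without replicate 2 of DU145-TFEB and to 2048 without replicate 3. Every DU145-TFEB library was on the same side of all DU145-vector libraries for each of the 41 genes.

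**Figure D3:**
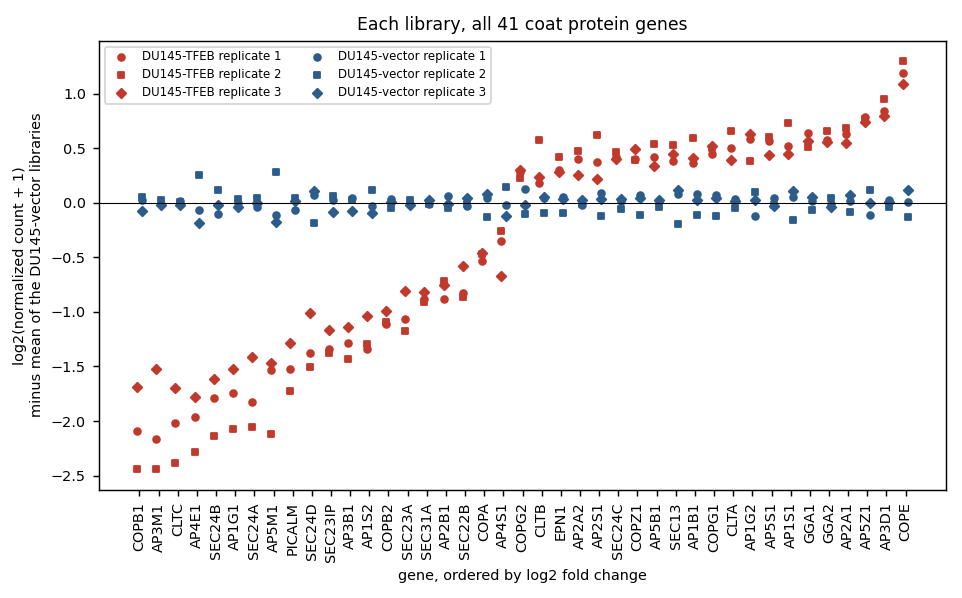
Level of each coat protein gene in each of the 6 libraries, as log2(normalized count + 1) minus the mean of the DU145-vector libraries (vertical axis), with genes ordered by log2 fold change (horizontal axis). DU145-TFEB libraries are red and DU145-vector libraries blue; replicate 2 of DU145-TFEB (squares) is the lowest for 15 of the 20 lower genes.

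The clathrin chains split. CLTC, the heavy chain that forms the legs of the lattice (chr17:59619689-59696956, plus strand, GRCh38), had normalized counts of 3667, 2851 and 4606 in DU145-TFEB and of 15061, 14948 and 14695 in DU145-vector. Every DU145-TFEB library was far below every control library, and the log2 fold change was -2.03 ± 0.14 (SE, n = 3 per group; limma, adjusted p = 3.98e-06). CLTA, a light chain that regulates lattice assembly (chr9:36190856-36304781, plus strand), had counts of 7419, 8244 and 6855 against 5352, 5061 and 5282. It was higher in all 3 DU145-TFEB libraries, by 0.52 ± 0.08 (limma, adjusted p = 0.000196). The other light chain, CLTB, was higher by 0.33 ± 0.11 (limma, adjusted p = 0.0133); without replicate 2 of DU145-vector its log2 fold change was 0.28 and did not pass (limma, adjusted p = 0.0537). After correction CLTC was at -0.99, CLTA at -0.32 and CLTB at -0.86, so that the light chains changed sign. The median corrected value of all listed genes was also -0.32, so CLTA lay at that median and CLTB below it.

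A ratio of 2 genes within a library does not depend on the size factor by which that library is divided. Quantile normalization does not use such a factor and can change the ratio. The level of CLTC per kilobase was 0.105, 0.0735 and 0.143 times that of CLTA in DU145-TFEB and 0.598, 0.628 and 0.591 times in DU145-vector. The ratio was thus 5.86-fold lower in DU145-TFEB, with no overlap (exact permutation test, two-sided, p = 0.1, the smallest that 3 against 3 libraries can give). From corrected values the log2 ratio changed by -0.67, and its groups did not overlap either. Adjusted over all pairs, the p was 0.107 for each pair whose groups did not overlap. Such ratios were computed for 16 pairs, chosen after the values were seen. Where 1 gene of a pair was higher and the other lower in every DU145-TFEB library, the groups of the deposited ratio cannot overlap. Their lack of overlap and their permutation p were then fixed in advance. This held for CLTC over CLTA, AP2B1 over AP2A1, AP3M1 over AP3D1 and COPB1 over COPE, among others.

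AP-1, the adaptor of the trans-Golgi network and endosomes, had 3 higher and 2 lower subunits, with log2 fold changes from -1.78 to 0.57. Its gamma subunit has a pair of paralogs that moved apart. AP1G1, gamma1-adaptin (chr16:71729000-71809201, minus strand), had counts of 1019.6, 809 and 1182 in DU145-TFEB against 3407, 3491 and 3322, a log2 fold change of -1.78 ± 0.12 (limma, adjusted p = 3.85e-06). AP1G2, gamma2-adaptin (chr14:23559565-23568070, minus strand), had 219.9, 191 and 227 against 134, 157 and 149, a log2 fold change of 0.53 ± 0.13 (limma, adjusted p = 0.00373). In the summed level of both genes per kilobase, AP1G2 made up 25.4% ± 1.94 (SD, n = 3) in DU145-TFEB and 6.42% ± 0.444 in DU145-vector. After correction AP1G1 stayed at -1.04 and AP1G2 was at -0.42 and did not pass (limma, adjusted p = 0.0666). Of the exonic bases of AP1G2, 50.8% also lie in exons of other genes, and the counting program and its strand setting are not given in the sources used here, so AP1G2 is uncertain.

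The small subunits of AP-1 moved apart as well. AP1S2 (chrX:15825806-15854931, minus strand) had counts of 138, 142 and 170.3 against 343, 379 and 328, with DU145-TFEB lower throughout, and the log2 fold change was -1.22 ± 0.13 (limma, adjusted p = 2.37e-05). AP1S1 (chr7:101154400-101161596, plus strand) had 4456, 5188 and 4256 against 3242, 2784 and 3352, and was higher throughout, by 0.57 ± 0.10 (limma, adjusted p = 0.00044). AP1S1 was the far more abundant of the pair, with AP1S2 at 1.06% ± 0.209 of their summed level per kilobase in DU145-TFEB and 3.57% ± 0.614 in DU145-vector. After correction AP1S2 was at -0.15 (limma, adjusted p = 0.185) and AP1S1 at -0.38, so that their ratio turned from lower to higher by 0.23. AP1B1, the large beta1 subunit, was higher by 0.46 ± 0.09 and at -0.54 after correction.

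AP-2, which gathers receptors at the plasma membrane, had 3 higher subunits and 1 lower. AP2B1, its beta2 subunit that binds clathrin (chr17:35578046-35726409, plus strand), had counts of 6964, 7835 and 7633 in DU145-TFEB against 13396, 12396 and 12749, which gave a log2 fold change of -0.78 ± 0.07 (limma, adjusted p = 9.57e-06). AP2A1, an alpha subunit that binds membrane lipids and accessory proteins (chr19:49766968-49807113, plus strand), had 4403, 4569 and 4153 against 2889, 2677 and 2985, a log2 fold change of 0.62 ± 0.07 (limma, adjusted p = 3.85e-05). The groups were apart in both genes and in opposite directions. AP2A2, the other alpha subunit, and AP2S1, the small subunit, were higher by 0.38 and 0.41. The level of AP2B1 over AP2A1 per kilobase was 1.82 to 2.12 in DU145-TFEB and 4.92 to 5.35 in DU145-vector, 2.64-fold lower (exact permutation test, two-sided, p = 0.1). After correction AP2B1 was at -0.37, AP2A1 at -0.20, AP2S1 at -0.58 and AP2A2 at 0.01, and the change of the AP2B1 ratio was -0.17 with overlapping groups.

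AP-3, the adaptor that sorts cargo such as LAMP proteins toward lysosomes, had 1 higher and 2 lower subunits. AP3M1, its medium subunit, which reads tyrosine-based sorting signals (chr10:74120255-74151063, minus strand), had counts of 479.8, 395 and 746 against 2139, 2189 and 2121. Its DU145-TFEB libraries were more spread than the controls, and all lay below them, with a log2 fold change of -2.04 ± 0.19 (limma, adjusted p = 1.19e-05). AP3D1, the large delta subunit (chr19:2100988-2164468, minus strand), had 9631, 10409.6 and 9336 against 5472, 5256 and 5423, higher in every DU145-TFEB library, by 0.86 ± 0.07 (limma, adjusted p = 5.38e-06). AP3B1, the large beta3A subunit, was lower, with a log2 fold change of -1.29 ± 0.09. The AP3M1 level was 0.0726, 0.0553 and 0.116 times that of AP3D1 per kilobase in DU145-TFEB and 0.569, 0.607 and 0.570 times in DU145-vector, 7.50-fold lower (exact permutation test, two-sided, p = 0.1). After correction AP3M1 was at -1.26, AP3B1 at -0.21 and AP3D1 at 0.06 (limma, adjusted p = 0.345), and the ratio of AP3M1 to AP3D1 still changed by -1.31 on the log2 scale with no overlap. Of the exonic bases of AP3M1, 18.8% also lie in exons of other genes.

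In AP-4, which exports the autophagy protein ATG9A from the trans-Golgi network, both listed subunits were lower. AP4E1, the large epsilon subunit (chr15:50908672-51005900, plus strand), had counts of 273, 217 and 308 against 1018, 1266 and 935, a log2 fold change of -2.01 ± 0.15 (limma, adjusted p = 5.21e-06). AP4S1, the small subunit (chr14:31025106-31096450, plus strand), had 559, 596 and 448 against 703, 791 and 657, a log2 fold change of -0.43 ± 0.13 (limma, adjusted p = 0.00799). The call for AP4S1 was lost with DESeq2 size factors (-0.19), upper-quartile scaling (-0.25), quantile normalization (-0.04) and DESeq2 on reads (-0.18), and the corrected value was 0.21 (limma, adjusted p = 0.17). The call for AP4E1 held in each of these, with a corrected value of -0.91.

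In AP-5, which acts at late endosomes and lysosomes, 3 subunits were higher and 1 lower. AP5M1, the medium subunit (chr14:57268909-57298742, plus strand), had 229, 152 and 239.9 against 615, 809 and 589, a log2 fold change of -1.70 ± 0.19 (limma, adjusted p = 3.00e-05). AP5Z1, the zeta subunit (chr7:4775615-4794395, plus strand), had 889, 874 and 858 against 474, 557 and 515, a log2 fold change of 0.76 ± 0.09 (limma, adjusted p = 4.29e-05). AP5S1 and AP5B1 were higher by 0.54 and 0.43. The zeta subunit was thus the highest of the AP-5 genes and the medium subunit the lowest, with no overlap of groups in either. After correction AP5M1 and AP5B1 were close to each other at -0.60 and -0.62, AP5S1 was at -0.34 and AP5Z1 at -0.21 (limma, adjusted p = 0.148).

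Both listed monomeric adaptors rose. GGA2 (chr16:23463542-23521995, minus strand) and GGA1 (chr22:37608475-37633564, plus strand) carry mannose 6-phosphate receptors, and with them newly made lysosomal enzymes, out of the trans-Golgi network. GGA2 had counts of 1716, 1821 and 1703 against 1144, 1193 and 1127, a log2 fold change of 0.60 ± 0.07 (limma, adjusted p = 4.60e-05). GGA1 had 1326, 1212 and 1256 against 856, 811 and 879, a log2 fold change of 0.57 ± 0.08 (limma, adjusted p = 9.97e-05). The ratio of GGA2 to GGA1 per kilobase was 1.47 to 1.71 in DU145-TFEB and 1.46 to 1.67 in DU145-vector, which overlap (exact permutation test, two-sided, p = 0.7). GGA2, with 51.9% GC, stayed higher after correction at 0.33, and GGA1, with 60.6% GC, was at -0.14 (limma, adjusted p = 0.223). Their corrected log2 ratio changed by 0.46 with no overlap of groups (exact permutation test, two-sided, p = 0.1).

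Of the adaptors with an ENTH or ANTH domain, which bind phosphoinositides and bend the membrane, PICALM fell and EPN1 rose. PICALM (chr11:85957684-86069882, minus strand), which also retrieves SNARE proteins, had counts of 1669, 1451 and 1958 against 4581, 4935 and 4845, a log2 fold change of -1.51 ± 0.10 (limma, adjusted p = 3.82e-06). It lies just past the cutoff of 1.5, and SEC24D, at -1.30, is the next gene short of it. PICALM was no longer past the cutoff with TMM (-1.43), upper-quartile scaling (-1.33), quantile normalization (-1.468), DESeq2 on reads (-1.26) and edgeR (-1.42). EPN1, epsin 1 (chr19:55675226-55709858, plus strand), had 3028, 3302 and 2989 against 2556, 2314 and 2525, a log2 fold change of 0.33 ± 0.07 (limma, adjusted p = 0.00187). The 3 libraries of each group lay on one side in both genes. After correction PICALM was at -0.69 and EPN1 at 0.21.

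Of the COPI subunits found by the naming rule, which leaves out ARCN1, 4 were higher and 3 lower. They had the widest range of any complex here, from -2.07 to 1.19. COPB1, beta-COP (chr11:14443440-14500027, minus strand), had counts of 775, 611 and 1027 against 3368, 3439.9 and 3146, a log2 fold change of -2.07 ± 0.16 (limma, adjusted p = 5.21e-06). COPE, epsilon-COP (chr19:18899514-18919397, minus strand), had 1584, 1712 and 1477 against 701, 636 and 756, a log2 fold change of 1.19 ± 0.09 (limma, adjusted p = 5.88e-06). COPB1 was the lowest and COPE the highest of all 41 genes. The level of COPB1 was 0.275, 0.200 and 0.391 times that of COPE per kilobase in DU145-TFEB and 2.70, 3.04 and 2.34 times in DU145-vector, so that the order of the pair turned over, with a 9.62-fold lower ratio (exact permutation test, two-sided, p = 0.1). COPA (alpha-COP) and COPB2 (beta'-COP), which form the outer layer together with epsilon-COP, had log2 fold changes of -0.49 and -1.07.

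The gamma-COP paralogs rose together. COPG1 was higher by 0.49 ± 0.07 and COPG2 by 0.27 ± 0.08, and COPZ1, the zeta1 subunit, by 0.43 ± 0.07. COPG2 (chr7:130506238-130668748, minus strand) had 1205, 1165 and 1218 against 1080.2, 924 and 978, with all DU145-TFEB libraries above the controls (limma, adjusted p = 0.0106). At 43.8% GC it was the only higher coat gene among those below 45%. After correction COPG2 was at 0.81, the highest corrected value of the 41 genes, COPZ1 at 0.31, COPE at 0.10 (limma, adjusted p = 0.163), COPG1 at -0.08 (limma, adjusted p = 0.317), COPB2 at -0.21, COPA at -0.27 and COPB1 at -1.23. The ratio of COPG2 to COPG1 was 1.17-fold lower as deposited and higher by 0.89 on the log2 scale after correction. Of the exonic bases of COPG2, 11.3% also lie in exons of other genes.

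**Figure D4:**
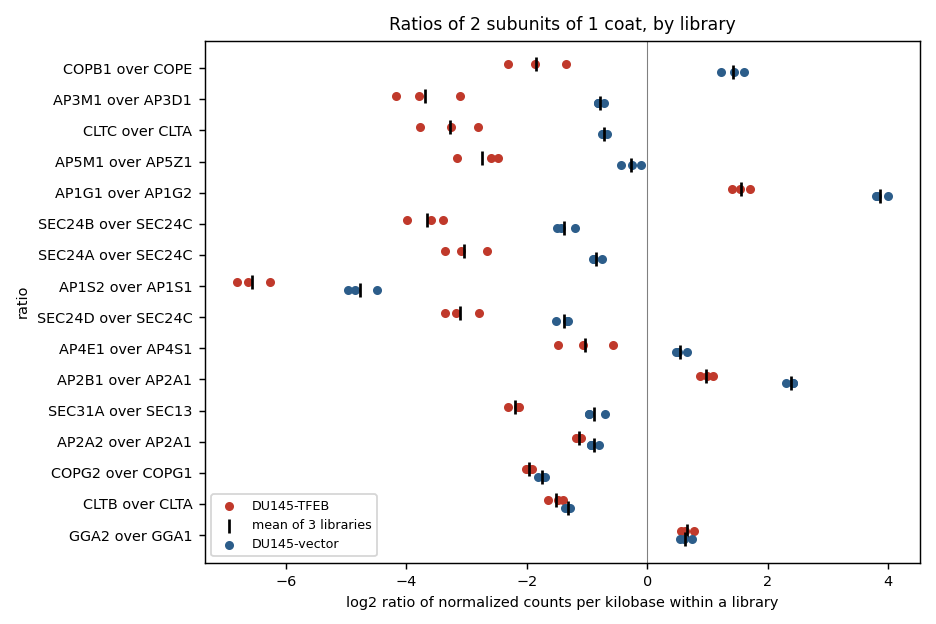
Log2 ratio of 2 genes of 1 coat within each library, from normalized counts per kilobase of gene length (horizontal axis), for 16 pairs (vertical axis). Red points are the 3 DU145-TFEB and blue points the 3 DU145-vector libraries, and bars mark their means; the groups overlap for GGA2 over GGA1 and for no other pair, and COPB1 over COPE shifts from above 0 to below 0.

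In the inner COPII coat 1 gene was higher and 4 lower. SEC23A, which stimulates GTP hydrolysis by SAR1, had a log2 fold change of -1.02 ± 0.09. SEC24 proteins are the cargo-binding subunits, and their 4 genes moved apart. SEC24A (chr5:134648789-134727823, plus strand) had counts of 419, 357 and 558 against 1445, 1530.2 and 1490.0, a log2 fold change of -1.77 ± 0.15 (limma, adjusted p = 6.60e-06). SEC24B (chr4:109433772-109540896, plus strand) had 215, 168 and 243 against 694, 809.5 and 736, a log2 fold change of -1.85 ± 0.14 (limma, adjusted p = 5.46e-06). SEC24D (chr4:118722823-118838683, minus strand) had 542, 496 and 699 against 1483, 1241 and 1521, a log2 fold change of -1.30 ± 0.14 (limma, adjusted p = 2.11e-05). All 3 were lower in every DU145-TFEB library. SEC24C (chr10:73744384-73772161, plus strand) had 2648, 2729.8 and 2624 against 2009, 1901 and 2035, a log2 fold change of 0.43 ± 0.07 (limma, adjusted p = 0.000219), and was higher in every one.

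SEC24C thus took a larger part of the SEC24 transcripts. Its share of the summed level per kilobase of the 4 genes was 76.3%, 79.5% and 71.6% in DU145-TFEB and 43.8%, 41.9% and 43.2% in DU145-vector. SEC24A made up 9.32% ± 1.82 (SD, n = 3) and 23.9% ± 0.950, SEC24B 6.05% ± 0.920 and 16.6% ± 1.49, and SEC24D 8.82% ± 1.30 and 16.5% ± 1.53. After correction SEC24B was at -1.29, SEC24A at -0.75, SEC24D at -0.51 and SEC24C at -0.20, and SEC23A was at 0.08 (limma, adjusted p = 0.278). All 4 SEC24 genes were thus below 0, but SEC24C was above the median corrected value of all listed genes (-0.32). The corrected log2 ratio to SEC24C changed by -1.08 for SEC24B and by -0.54 for SEC24A, without overlap, and by -0.30 for SEC24D with overlap. Of the exonic bases of SEC24C, 42.9% also lie in exons of other genes.

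**Figure D5:**
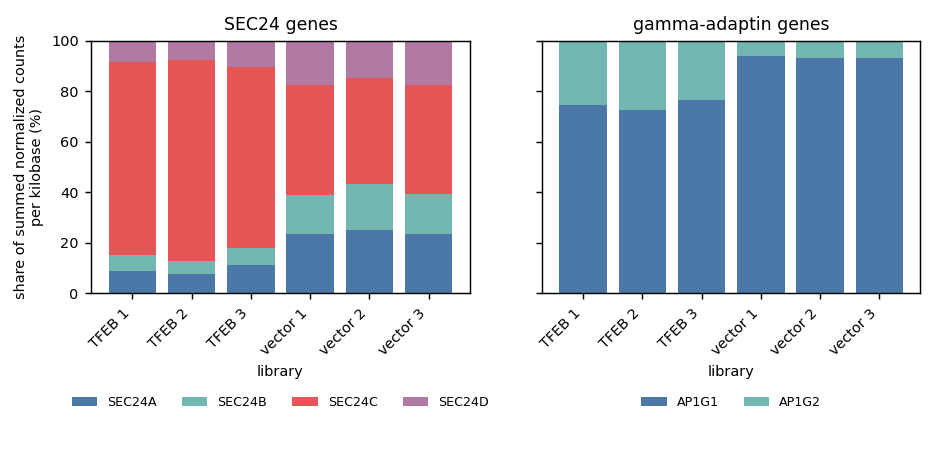
Share of each gene in the summed normalized counts per kilobase of its paralogs (vertical axis, percent) in each of the 6 libraries (horizontal axis), for the 4 SEC24 genes on the left and the gamma-adaptin genes on the right. SEC24C rises from 43.0% to 75.8% and AP1G2 from 6.42% to 25.4% between the means of DU145-vector and DU145-TFEB.

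The outer COPII cage is built from SEC13 and SEC31. SEC31A (chr4:82818661-82901166, minus strand) had counts of 1586, 1556 and 1660.3 against 2891, 2902 and 2970.0, a log2 fold change of -0.87 ± 0.07 (limma, adjusted p = 5.07e-06). SEC13 (chr3:10293131-10321178, minus strand), which is also part of the nuclear pore, had 4175, 4622 and 4352 against 3383, 2797 and 3469, a log2 fold change of 0.45 ± 0.09 (limma, adjusted p = 0.00114). The partners moved apart in all libraries as deposited, and after correction they were at -0.25 and -0.24. SEC23IP, a protein that links the inner and outer layers (chr10:119892711-119944658, plus strand), had 874, 854 and 986 against 2251, 2315 and 2085, a log2 fold change of -1.29 ± 0.08 (limma, adjusted p = 3.28e-06) and -0.46 after correction. SEC22B, a SNARE of transport between the endoplasmic reticulum and the Golgi (chr1:120150898-120176515, minus strand), had 823, 803 and 980.2 against 1431, 1453 and 1511. Its log2 fold change was -0.76 ± 0.09 (limma, adjusted p = 5.20e-05), and 0.41 after correction (limma, adjusted p = 0.00857), and no other lower coat gene passed as higher after correction. SEC22B, like AP1B1, AP1S2, SEC24A and SEC13, has at least 1 pseudogene named after it in GENCODE 29, so that reads of near-identical copies are a source of uncertainty.

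By level per kilobase over all libraries, the 5 most abundant coat transcripts were CLTA, AP1S1, AP2S1, AP2B1 and COPA. Mean levels per kilobase in DU145-TFEB and DU145-vector were 2985 ± 278 and 2080.1 ± 60.4 (SD, n = 3) for CLTA and 2639 ± 279.5 and 1780.4 ± 171 for AP1S1. They were 2369.6 ± 336 and 1779 ± 135 for AP2S1, the small AP-2 subunit. AP2B1 went from 1693 ± 66.9 in DU145-vector to 986 ± 60.1, and COPA from 1435 to 1021. In DU145-vector the levels of AP1S1, AP2S1 and AP2B1 differed by less than the SD of AP1S1, and CLTC, at 1259 ± 15.8, was below COPA. In DU145-TFEB CLTC was at 313 ± 74.2, and the means of COPZ1 (1395), AP3D1 (1137), COPG1 (1128) and CLTB (1054) were above those of COPA and AP2B1. The least abundant over all libraries were AP1G2, AP5M1 and AP1S2. Their levels per kilobase were 30.9, 15.9 and 27.9 in DU145-TFEB and 21.3, 51.5 and 65.2 in DU145-vector. In DU145-vector alone, AP5S1 (39.9) was below AP5M1 and AP1S2, and AP5Z1 (61.4) was below AP1S2.

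TFEB binds E-box sequences, most strongly within the CLEAR element, so the promoters of the coat genes were searched for CACGTG and for the longer TCACGTG and GTCACGTG on both strands. RefSeq windows (GRCh38.p14) from 250 bases before to 50 after a transcription start were held for 37 of the 41 genes, in 48 windows, since a gene can have several starts; SEC24D, AP3B1, GGA2 and AP3D1 had none. CACGTG lay in windows of 5 genes: SEC24A, AP5Z1, SEC23IP, PICALM and AP1S2, which was 10.4% of the windows of the coat genes, 9.18% of the 10892 windows of listed protein-coding genes and 7.26% of all 35116 windows. TCACGTG and GTCACGTG, which contain it, were each in 8.33% of the windows of the coat genes in 5.52% and 4.02% of the windows of listed protein-coding genes, and in 3.71% and 2.40% of all windows. The 4 genes with GTCACGTG are shown by the stretch around the match, 5′ to 3′ on the gene's strand, with the match, on either strand, in capitals. The AP5Z1 stretch runs into the start of the gene, that of PICALM lies inside the annotated gene before an alternative start, and those of SEC23IP and AP1S2 lie before the annotated gene. Positions are counted from the transcription start, and a match is a description of the letters only.
AP5Z1 (chr7:4775566-4775626, plus strand, base -57 to 3 from the start): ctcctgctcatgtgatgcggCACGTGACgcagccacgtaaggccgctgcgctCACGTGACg
PICALM (chr11:86069105-86069154, minus strand, base -70 to -21): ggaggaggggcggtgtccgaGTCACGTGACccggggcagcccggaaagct
SEC23IP (chr10:119892550-119892597, plus strand, base -180 to -133): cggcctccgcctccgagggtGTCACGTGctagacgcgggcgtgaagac
AP1S2 (chrX:15855020-15855063, minus strand, base -250 to -207): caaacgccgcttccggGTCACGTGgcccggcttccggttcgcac

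AP5Z1 and PICALM hold more than 1 match, and in PICALM the match at -50 reads the same on both strands over 10 bases, so that it counts in both directions; PICALM has a further match at -234. Of these 4 genes AP5Z1 was higher (0.76) and PICALM, SEC23IP and AP1S2 were lower (-1.51, -1.29 and -1.22), and SEC24A, which holds only the shorter CACGTG at -42, was lower (-1.77). After correction the 5 genes were at -0.21, -0.69, -0.46, -0.15 and -0.75.

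Genes that work with the coats were taken from 4 lists of 119 genes in all, of which 99 were in the table. Of these, ARCN1 is itself a COPI subunit, which the naming rule leaves out. By limma 43 of the 99 genes were higher and 56 lower, with 12 lower DEGs, 0 higher DEGs and a median log2 fold change of -0.44. These were 43.4% higher, 56.6% lower and 12.1% lower DEGs, beside 47.6%, 52.4% and 16.5% of all listed genes. Their higher transcripts had 47.3% to 65.3% GC and their lower transcripts 36.6% to 53.5%. After correction 15 were higher (15.2%), 54 lower (54.5%) and 30 did not pass, beside 14.7% higher and 53.8% lower of all corrected genes.

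Among the clathrin accessory and uncoating genes 12 were higher and 23 lower of 35 listed, with 5 lower DEGs. SCYL2, a kinase-like protein that binds clathrin and AP-2, had counts of 293, 189 and 382 against 1141, 1371 and 1059, a log2 fold change of -2.09 ± 0.22 (limma, adjusted p = 2.26e-05). FCHO2, which starts endocytic pits, had 148, 87.4 and 179 against 483, 494 and 467, a log2 fold change of -1.86 ± 0.23 (limma, adjusted p = 5.20e-05). Both had their lowest value in replicate 2 of DU145-TFEB and stayed lower after correction, at -0.96 and -0.78.

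For COPI the accessory list had 12 higher and 14 lower of 26, and for COPII 15 higher and 14 lower of 29, with 3 lower DEGs each. ARFGEF1 and ARFGEF2, the exchange factors that activate ARF GTPases for Golgi coats, had log2 fold changes of -2.19 ± 0.22 and -1.81 ± 0.18 (limma, adjusted p = 1.56e-05 and 1.81e-05). ARFGEF1 had counts of 350.4, 238 and 494 against 1571, 1689 and 1478, and ARFGEF2 944.9, 654 and 1227 against 3245, 3138 and 3240.0. ARCN1, the delta subunit of COPI that the naming rule leaves out, was named after its values were seen, with 4172, 3709 and 4653 against 7884, 7328 and 7601, a log2 fold change of -0.87 ± 0.09 (limma, adjusted p = 1.69e-05). TRAPPC8, a subunit of the tethering complex TRAPP, had counts of 446, 270.2 and 524 against 1604, 1818 and 1627, a log2 fold change of -2.07 ± 0.21 (limma, adjusted p = 1.61e-05). LMAN1, the mannose-binding cargo receptor ERGIC-53, had 1654, 1029 and 2054 against 5199.9, 5325 and 5239, a log2 fold change of -1.79 ± 0.20 (limma, adjusted p = 3.25e-05). The corrected values were -1.13, -0.97, -0.33, -0.98 and -0.75 in the order ARFGEF1, ARFGEF2, ARCN1, TRAPPC8 and LMAN1.

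Of the receptors that clathrin coats carry, 4 were higher and 5 lower of 9 listed, with TFRC the only DEG. TFRC, the transferrin receptor and a classical cargo of AP-2, had counts of 1357, 1397 and 1451 against 5374, 6788 and 5477, a log2 fold change of -2.06 ± 0.10 (limma, adjusted p = 2.30e-06). Its DU145-TFEB libraries lay close together, without the low replicate 2 seen in CLTC. Chosen after their values were seen, LRP1 was the highest of the list at 1.13 ± 0.09 (limma, adjusted p = 6.67e-06), and IGF2R, the mannose 6-phosphate receptor that GGA proteins and AP-1 carry, was higher by 0.75 ± 0.07 (limma, adjusted p = 8.98e-06). EGFR, also chosen after its values were seen, was the second lowest of the list at -1.45 ± 0.11 (limma, adjusted p = 5.07e-06). After correction TFRC and EGFR were both at -1.10, LRP1 at 0.75 and IGF2R at 1.12.

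The fold changes moved with the normalization. With size factors estimated by DESeq2 from the listed genes the median of all listed genes moved from -0.36 to -0.12 and that of the coat genes from 0.27 to 0.51. By these factors 7 coat genes were lower DEGs, beside 10.5% of all listed genes. Quantile normalization left 5 lower DEGs among the coat genes, beside 7.7% of all listed genes. Of all listed DEGs 58.9% were then lower, against 86.7% as deposited. No coat gene changed direction under any of the scalings run, and AP4S1 was the only one that no longer passed at an adjusted p below 0.05. The lower DEGs no longer past the cutoff were PICALM under each rescaling and in the tests on reads, AP5M1 with DESeq2 size factors, DESeq2 on reads and quantile normalization, and SEC24A and SEC24B with quantile normalization.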

How the data were processed

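Polyadenylated RNA of 3 DU145-TFEB and 3 DU145-vector libraries had been sequenced. The submitters' processing notes name CASAVA 1.8, HISAT2 2.1.0, edgeR and GRCh38, and the paper names the NEBNext Ultra kit and DESeq2. The signal values deposited by the authors are read counts divided by 1 size factor per library (0.950 to 1.10), so whole reads were recovered for 100% of values within 0.01 reads. All 10542 listed genes had a deposited adjusted p below 0.05. The deposited fold changes, p-values and group means were not used.

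limma 3.58.1 with a mean-variance trend was run in R 4.3.3 on log2(normalized count + 1) over all listed genes, with Benjamini-Hochberg adjustment and no block. This was the planned choice for values that are not raw counts; a mean below 1 would have been filtered, and 0 genes were. The recovered reads were also tested with DESeq2 1.42.0 and with edgeR 4.0.16. For corrected values, a loess trend (span 0.5) against transcript GC content from GENCODE 29 and gene length was removed per library for 10537 genes. Levels between genes were compared per kilobase of the deposited gene length. Scripts were tested on simulated data.

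The coat genes and lists were chosen with earlier results of these data known. Within each complex the highest and lowest gene, every DEG and paralogs of opposite direction are named, with the 5 most abundant genes, up to 2 highest and 2 lowest DEGs of each accessory list, and TFEB. Ratios, shares and the overlap counts were added after seeing the data.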

Additional observations from a re-analysis of the deposited data

How the results depend on the processing

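Of the 41 coat genes, all kept direction and call with pseudocounts of 0.5 and 5, with at least 10 reads in every library, with no filter, among protein-coding genes only, with TMM and with edgeR; 40 did so under the other scalings and DESeq2, where AP4S1 lost its call. The median log2 fold change of the coat genes was 0.51 with DESeq2 size factors (0.5096) and 0.507 with DESeq2 on reads, 0.447 with upper-quartile scaling, 0.349 with quantile normalization, 0.347 with TMM and 0.345 with edgeR. Lower DEGs were 5 with quantile normalization, beside 7.7% of all listed genes. With a cutoff of 1 there were 1 higher and 15 lower DEGs among the coat genes. The share of all listed genes at that cutoff was not computed, so these counts have no background to be read against. Over the left-out libraries the median ranged from 0.209 to 0.331, the higher genes from 20 to 21, the lower DEGs from 7 to 9, and CLTB alone lost its call, without replicate 2 of DU145-vector. Lower DEGs made up 12.2% to 19.4% of all listed genes in these fits.

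With the GC and length trend removed, 5 coat genes and 15 accessory genes were higher and 0 coat genes were lower DEGs. Of the genes with a corrected value, 14.7% were higher and 3.78% were lower DEGs. The median of the coat genes was -0.273, beside -0.318 for all listed genes. Values of higher genes that changed sign were CLTA (-0.315), CLTB (-0.857), AP1S1 (-0.384), AP1G2 (-0.419), AP1B1 (-0.539), AP2A1 (-0.202), AP2S1 (-0.581), AP5Z1 (-0.208), AP5S1 (-0.343), AP5B1 (-0.623), GGA1 (-0.138), COPG1 (-0.0811), SEC24C (-0.202) and SEC13 (-0.244). Values of lower genes that changed sign were AP4S1 (0.208), SEC23A (0.0770) and SEC22B (0.406). Of these AP1G2, AP5Z1, GGA1, COPG1, AP4S1 and SEC23A did not pass, and AP1S2, AP2A2, AP3D1 and COPE also lost the call, 10 genes in all. The ratios of AP1S2 to AP1S1 (0.232), COPG2 to COPG1 (0.887) and AP2A2 to AP2A1 (0.209) turned as well. The cause was not tested.

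Libraries of the same number did not deviate together: the correlations of their deviations were -0.0178, -0.246 and -0.141 for replicates 1, 2 and 3. Libraries of different numbers had correlations from -0.149 to 0.248. With 3 libraries a group these values cannot decide whether the samples were paired. With the replicate block 21 coat genes were higher, 20 lower and 9 were lower DEGs, beside 47.1%, 52.4% and 16.5% of all listed genes. With the block and the trend removed, 4 coat genes were higher, 25 lower and 0 were lower DEGs. In that fit 14.1%, 52.6% and 3.77% of the genes with a corrected value were so. The median of the coat genes was -0.273, 15 accessory genes were higher, and EPN1 and AP5S1 did not pass either.

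The lowest recovered count of a coat gene in a library was 131 reads, in AP1S2.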
